A study of Mus musculus with 8 samples.

Results

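CD8 T cells with at least 3 transcripts in sum of Xcl1, Crtam and Tnfrsf9, most often Xcl1, were described in mouse liver, kidney and heart allografts. A cell was counted as a member when it held at least 500 unique molecular identifiers (UMIs, each tagging 1 captured transcript), at most 10% mitochondrial UMIs, at least 2 UMIs of CD3 and T-cell receptor genes (Cd3d, Cd3e, Cd3g and Trac), at least 2 of Cd8a and Cd8b1, none of Cd4, Csf1r or Cd79a, fewer than 3 of 6 cell-cycle genes (Mki67, Top2a, Ube2c, Birc5, Cdk1 and Ccna2), and at least 3 of Xcl1, Crtam and Tnfrsf9 together. This rule gave 266 members among 5365 non-cycling CD8 T cells, 47541 cells that passed the depth and mitochondrial filters and 80000 deposited barcodes. The 3898 CD8 T cells with 0 UMIs of the 3 genes, taken from the same libraries, served as comparison cells, and 1201 cells with 1 or 2 UMIs lay between. The members were chosen by their counts of the 3 genes, so levels of the 3 genes in members are given as a description, with no test.

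XCL1 is a chemokine that CD8 T cells and natural killer (NK) cells secrete, and its receptor XCR1 is carried by the dendritic cells that cross-present antigen. CRTAM is an adhesion receptor that T cells gain for a short time after antigen recognition, and TNFRSF9 (4-1BB) is a costimulatory receptor of the tumour necrosis factor receptor family with the same kind of induction. The 3 genes are therefore commonly read together as a sign of recent T-cell receptor stimulation. In an organ graft, CD8 T cells of the recipient recognise donor major histocompatibility complex molecules and are among the main effectors of acute rejection.

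Heart, liver and kidney of BALB/c donors had been transplanted into C57BL/6 recipients without immunosuppression, and cells were collected on day 7. The labels give the strain BALB/c, male sex and an age of 8 weeks for all 8 libraries. Each of the 3 organs gave 1 library of peripheral blood mononuclear cells (PBMCs) and 1 of tissue-infiltrating lymphocytes (TILs), and liver and kidney also gave 1 library each of dissociated parenchymal cells (PCs). No ungrafted control library was analysed here, and each condition had a single library. The study's methods give 2 recipients per organ, without saying how they were shared among the libraries, so the blood, TIL and PC libraries of an organ may come from the same animals. The library labelled heart TIL held 1056 Alb UMIs and 2 Myl7 UMIs, whereas the library labelled liver TIL held 0 Alb and 128 Myl7 UMIs, so their organ genes (Alb of hepatocytes, Myl7 of atrial muscle) went against their labels. The main test of members against comparison cells was made within libraries, whereas some described shares and floors are pooled over them. The share of members, the counts of genes called and the values of Ccl1 and Ifng are also given without these 2 libraries. Any pair of libraries shared between 123 and 617 cell barcodes. The barcodes of 31 members were also listed in another library, and 0 barcodes were members in 2 libraries.

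The sequence from 250 bases before to 50 bases after the transcription start was examined for Xcl1 and Tnfrsf9, which define the members, and for Ccl1 and Ifng, the genes with the smallest adjusted p in them. RefSeq on GRCm38.p6 gave these windows at chr1:164935473-164935772 (minus strand) for Xcl1, chr4:150919905-150920204 (plus strand) for Tnfrsf9, chr11:82179763-82180062 (minus strand) for Ccl1 and chr10:118440796-118441095 (plus strand) for Ifng. Capitals mark the letters GGAAAA, searched for here as an NFAT motif, or its reverse complement TTTTCC.
Xcl1: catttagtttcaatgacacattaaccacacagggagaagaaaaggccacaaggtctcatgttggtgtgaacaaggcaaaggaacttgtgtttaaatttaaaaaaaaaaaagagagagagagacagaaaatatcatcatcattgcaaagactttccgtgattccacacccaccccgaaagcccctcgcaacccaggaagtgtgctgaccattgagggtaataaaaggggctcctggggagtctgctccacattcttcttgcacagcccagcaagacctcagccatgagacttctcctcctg
Tnfrsf9: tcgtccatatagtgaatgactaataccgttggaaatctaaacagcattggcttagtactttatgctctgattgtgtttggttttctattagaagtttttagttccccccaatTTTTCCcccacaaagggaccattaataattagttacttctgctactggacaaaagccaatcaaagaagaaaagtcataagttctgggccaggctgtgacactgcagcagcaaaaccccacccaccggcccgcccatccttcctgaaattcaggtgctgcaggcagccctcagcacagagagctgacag
Ccl1: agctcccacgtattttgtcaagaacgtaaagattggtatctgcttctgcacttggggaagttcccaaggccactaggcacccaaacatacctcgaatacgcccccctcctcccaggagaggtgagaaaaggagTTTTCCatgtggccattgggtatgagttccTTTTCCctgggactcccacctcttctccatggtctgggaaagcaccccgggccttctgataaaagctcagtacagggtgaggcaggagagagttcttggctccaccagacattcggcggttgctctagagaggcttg
Ifng: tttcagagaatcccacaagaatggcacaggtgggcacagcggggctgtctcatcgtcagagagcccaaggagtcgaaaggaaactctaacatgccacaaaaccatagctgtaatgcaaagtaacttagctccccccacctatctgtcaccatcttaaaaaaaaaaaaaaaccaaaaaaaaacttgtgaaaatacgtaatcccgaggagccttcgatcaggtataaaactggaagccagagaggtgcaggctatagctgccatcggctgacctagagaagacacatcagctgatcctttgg

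On both strands, the Ccl1 window held 2 matches to GGAAAA, the Tnfrsf9 window held 1, and those of Xcl1 and Ifng held 0. The shorter letters GGAAA or TTTCC, which the Xcl1 and Ifng windows do hold, were not counted. A second annotated start of Tnfrsf9, with its window at chr4:150927749-150928048, held 1 match to the AP-1 motif TGANTCA and 0 to GGAAAA. Of 32851 mouse promoter windows of this length, 23.4% held a match to GGAAAA and 7.81% an AP-1 match. A match to these letters is a description of the sequence and not of binding.

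Xcl1 carried the rule in most members. It was detected in 244 of the 266 members (91.7%), Tnfrsf9 in 154 (57.9%) and Crtam in 72 (27.1%). The members held 2139 Xcl1 UMIs, 304 Tnfrsf9 UMIs and 111 Crtam UMIs. All 3 genes were seen together in 38 members, exactly 2 genes in 128 and a single gene in 100, of which 88 held Xcl1 alone, 11 Tnfrsf9 alone and 1 Crtam alone. The sum of the 3 genes was 3 in 91 members, 4 in 39 and 5 or more in 136, with a highest value of 121. Crtam was the least even of the 3, found in 40 of 111 members of liver PC and in 1 of 28 members of kidney TIL.

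Of the 266 members, 265 came from graft libraries and 1 from blood. Among the non-cycling CD8 T cells, members made up 3.16% in the library labelled heart TIL (47 of 1486), 5.23% in liver PC (111 of 2121), 8.42% in the library labelled liver TIL (77 of 915), 7.05% in kidney TIL (28 of 397) and 2.11% in kidney PC (2 of 95). In blood they made up 0.909% in kidney PBMC (1 of 110), while heart PBMC had 0 of 160 and liver PBMC 0 of 81, which allow shares of up to 1.88% and 3.70% by a floor of 3 counts and of up to 2.28% and 4.45% by the exact 95% binomial interval. The 5 tissue libraries averaged 5.19% ± 2.62 (SD, n = 5) and the 3 blood libraries 0.303% ± 0.525 (SD, n = 3), and the groups did not overlap. The rule did not use the source of a cell, and the difference was tested over libraries (two-sided exact permutation test over libraries, p = 0.0357, with 0.0179 the smallest p the design allows). UMIs of the 3 genes were also more frequent in macrophages and monocytes of tissue, a background given below. This p-value does not separate the member shares from that background. The difference of 4.89 percentage points kept its direction without any single library, at 4.09 to 5.66 points, but exact permutation p was then 0.0571 to 0.0952, and without both TIL libraries whose organ genes went against their labels it was 4.49 points (p = 0.1). Within each organ as labelled, every tissue library lay above the blood library. The exact 95% intervals overlapped, however, for liver PC, kidney TIL and kidney PC, and the kidney PC share rests on 2 cells against 1 in blood. The blood shares rest on 351 non-cycling CD8 T cells in all, and since libraries of an organ may share animals, the 8 libraries may not be independent and the p-value may be too small.

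**Figure D1:**
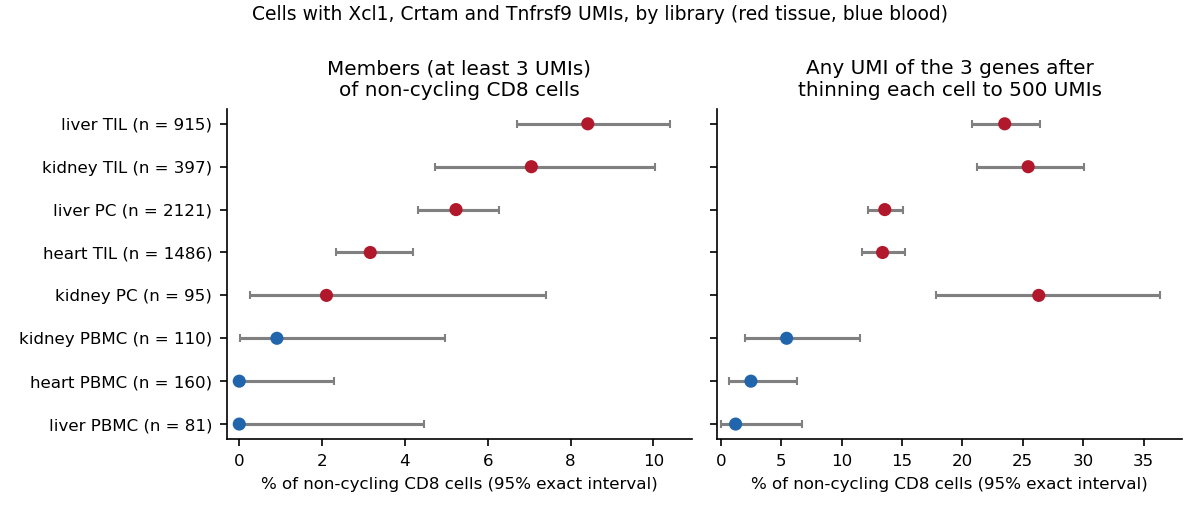
Percent of non-cycling CD8 T cells (horizontal axes, linear, with exact 95% binomial intervals for counting error) that were members (left) or held any UMI of the 3 genes after thinning to 500 UMIs (right), for the 8 libraries (vertical axis, as labelled; red, tissue; blue, blood). At left the 5 tissue libraries lie between 2.11% and 8.42% and the 3 blood libraries at or below 0.909%.

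With every cell thinned to 500 UMIs, the share of non-cycling CD8 T cells with at least 1 UMI of the 3 genes was 20.4% ± 6.44 (SD, n = 5) in tissue and 3.06% ± 2.17 (SD, n = 3) in blood, given as a description since the background below also differed. Unthinned median depth was 862.5, 1399, 857, 609 and 699 UMIs in the tissue libraries labelled heart TIL, liver PC, liver TIL, kidney PC and kidney TIL, and 1098.5, 1012 and 910 in heart, liver and kidney PBMC. Macrophages and monocytes, gated by Csf1r, Lyz2 and C1qa, were taken as an estimate of the background of free RNA by the same measure. Their gate allowed no UMI of the CD3 genes and Trac, of Cd79a and Cd79b or of Ncr1 and Klrb1c. It thus left out barcodes with T-cell RNA, so this background may be placed low. Expression of the 3 genes by these cells themselves was not tested. In the library labelled heart TIL, 4.60% of them had such a UMI, against 13.8% of CD8 T cells of any cycle state. The pairs for macrophages and CD8 T cells were 2.88% and 13.6% in liver PC, 8.81% and 22.9% in the library labelled liver TIL, 14.5% and 26.7% in kidney PC, and 7.28% and 24.6% in kidney TIL. In blood they were 0.599% and 2.17% in heart, 0.627% and 1% in liver and 2.29% and 5.56% in kidney. The background was thus also higher in each tissue library than in each blood library, and its part in the member shares was not tested. The CD8 share was above the macrophage share in all 8 libraries, but the 95% intervals of the pair overlapped in kidney PC and in the 3 blood libraries, where the signal was not distinguishable from background at this depth. Before thinning, median depth ranged from 610 to 1644.5 UMIs in CD8 T cells and from 563 to 1399 in macrophages and monocytes.

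The label of the cells was next set against its own markers. Tcf7, the transcription factor of stem-like and memory T cells, was not shown to mark the members. Levels are in CPM (UMIs of the gene in counts-per-million, out of all UMIs of the class). The libraries are those labelled heart TIL, liver PC, liver TIL and kidney TIL, in that order. Tcf7 stood at 58.7, 51.8, 9.67 and 0 CPM in members and 10.9, 30.5, 31.8 and 34.2 in comparison cells. Members held 4, 15, 1 and 0 Tcf7 UMIs. The intervals of members and comparison cells overlapped in each library, so its direction could not be placed in any of them. The log2 fold change was 0.38 (SE 0.42, edgeR adjusted p = 0.75) and changed sign without liver PC (-0.13). The name of stem-like or memory cells is therefore not used here. Ifng was higher in every library. Cd200, an inhibitory ligand of the immunoglobulin family, was higher in the library labelled heart TIL and in liver PC. Its intervals overlapped in the library labelled liver TIL, with 7 UMIs in members, and in kidney TIL, with 1 UMI.

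Gene expression was compared between 263 members and 3504 comparison cells of the 4 libraries with at least 20 cells in each class, by summing counts per library and class. In all values that follow, the libraries are given in the order labelled heart TIL, liver PC, labelled liver TIL and kidney TIL, and levels are CPM of the class. edgeR's quasi-likelihood test with library as a term tested 10983 genes, with Benjamini-Hochberg adjustment and the 18 genes of the rule left out. It called 94 genes higher in members, 0.856% of those tested, and 411 lower, 3.74%. The log2 fold change of all genes had a median of -0.26, so the scaling by trimmed mean of M values placed members low, and a value near -0.26 is no difference. Scaled by total UMIs alone, the median was -0.05 and the calls were 427 higher (3.89%) and 360 lower (3.28%), with all 94 of the higher genes and 360 of the 411 lower genes among them. More UMIs were captured in members, which the rule favours by asking for at least 3 UMIs of the 3 genes, with median UMIs of 1196 against 836, 2505 against 1330.5, 1201 against 801.5 and 787.5 against 679. Against comparison cells matched for depth, an alternative added after the data were seen, 104 genes were higher (1.18%) and 291 lower (3.29%), and these held 77 of the 94 and 282 of the 411.

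**Figure D2:**
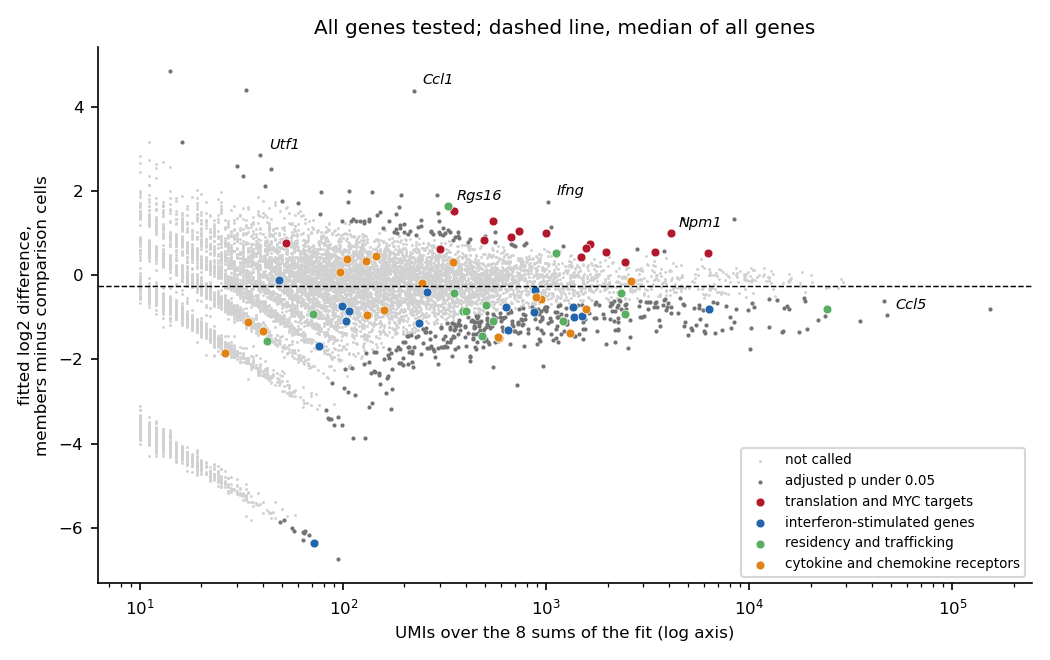
Fitted log2 difference of members minus comparison cells (vertical axis) by summed UMIs of the fit (horizontal axis, log scale) for the 10983 genes tested, with called genes in dark grey and 4 gene lists in colour. The 16 translation and MYC targets (red) all lie above the median of all genes, -0.26 (dashed line), and Ccl1 lies at 4.38.

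Of the secreted factors, Ccl1, Ifng, Ccl3 and Ccl4 were higher. Ccl1, a chemokine of activated T cells that binds CCR8, stood at 264, 211, 658 and 979 CPM in members and at 6.37, 8.06, 37.0 and 29.3 in comparison cells. The members exceeded the comparison cells in each library without overlap across libraries, with a log2 fold change of 4.38 (SE 0.26, edgeR adjusted p = 1.67e-58). These counts came from few cells, since 42 of 263 members (16.0%) held a Ccl1 UMI against 1.31% of comparison cells, and 5 members held 46.8% of the 171 UMIs. In kidney TIL, 15 of 24 Ccl1 UMIs lay in 1 cell.

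Ifng, the main effector cytokine of CD8 T cells, stood at 734, 521, 938 and 1060.2 CPM in members and at 183, 145, 233 and 190.3 in comparison cells. Its groups did not overlap, with a log2 fold change of 1.74 (SE 0.18, edgeR adjusted p = 9.44e-18). It was detected in 38.0% of members and 15.5% of comparison cells, and in each library in a larger share of members, at 29.8%, 41.4%, 36.4% and 42.9% against 14.5%, 16.9%, 14.9% and 12.9%. Its UMIs were unevenly spread, and the 5 highest members held 74.0%, 47.7%, 44.3% and 73.1% of them. Ccl4 and Ccl3 encode inflammatory chemokines that activated CD8 T cells secrete. Ccl4 stood at 4915, 3376, 6131 and 734 CPM in members and 1855, 1567, 1565 and 112 in comparison cells (log2 fold change 1.33, SE 0.19, edgeR adjusted p = 8.48e-10). A larger share of members than of comparison cells held a Ccl4 UMI in 3 libraries (75.7% against 63.6%, 74.0% against 51.8% and 21.4% against 5.54%), but in the library labelled heart TIL the shares were 63.8% and 63.9%, and 5 of its 47 members held 65.7% of the Ccl4 UMIs. In kidney TIL 5 members held 17 of 18 Ccl4 UMIs. Ccl3 stood at 1907, 2027, 2302 and 1101 against 876, 1089, 545 and 63.4 (1.33, SE 0.18, edgeR adjusted p = 4.21e-10). Kidney TIL had the lowest Ccl4 level in both classes and, as a log2 ratio of the classes, the largest value for Ccl3 (4.12). Of 16 secreted cytokines and chemokines tested, these 4 genes were higher, Cxcl10 and Spp1 were lower and 10 were not called, beside 0.856% and 3.74% of all tested genes. The call of Spp1 was lost by total UMIs, which gave 6 higher and 1 lower, and against depth-matched cells, which gave 5 and 1. Cxcl10 and Spp1 are chiefly products of myeloid and stromal cells. Ccl5, a chemokine that resting effector and memory CD8 T cells keep at a high level, was lower, at 6793, 5019.6, 2998 and 2447 in members against 12877, 12517, 5459 and 1073 in comparison cells. Its order in kidney TIL was the opposite, and the call (log2 fold change -0.95, edgeR adjusted p = 7.83e-05) was lost without the library labelled heart TIL (-0.77), liver PC (-0.69) or the library labelled liver TIL (-0.82).

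**Figure D3:**
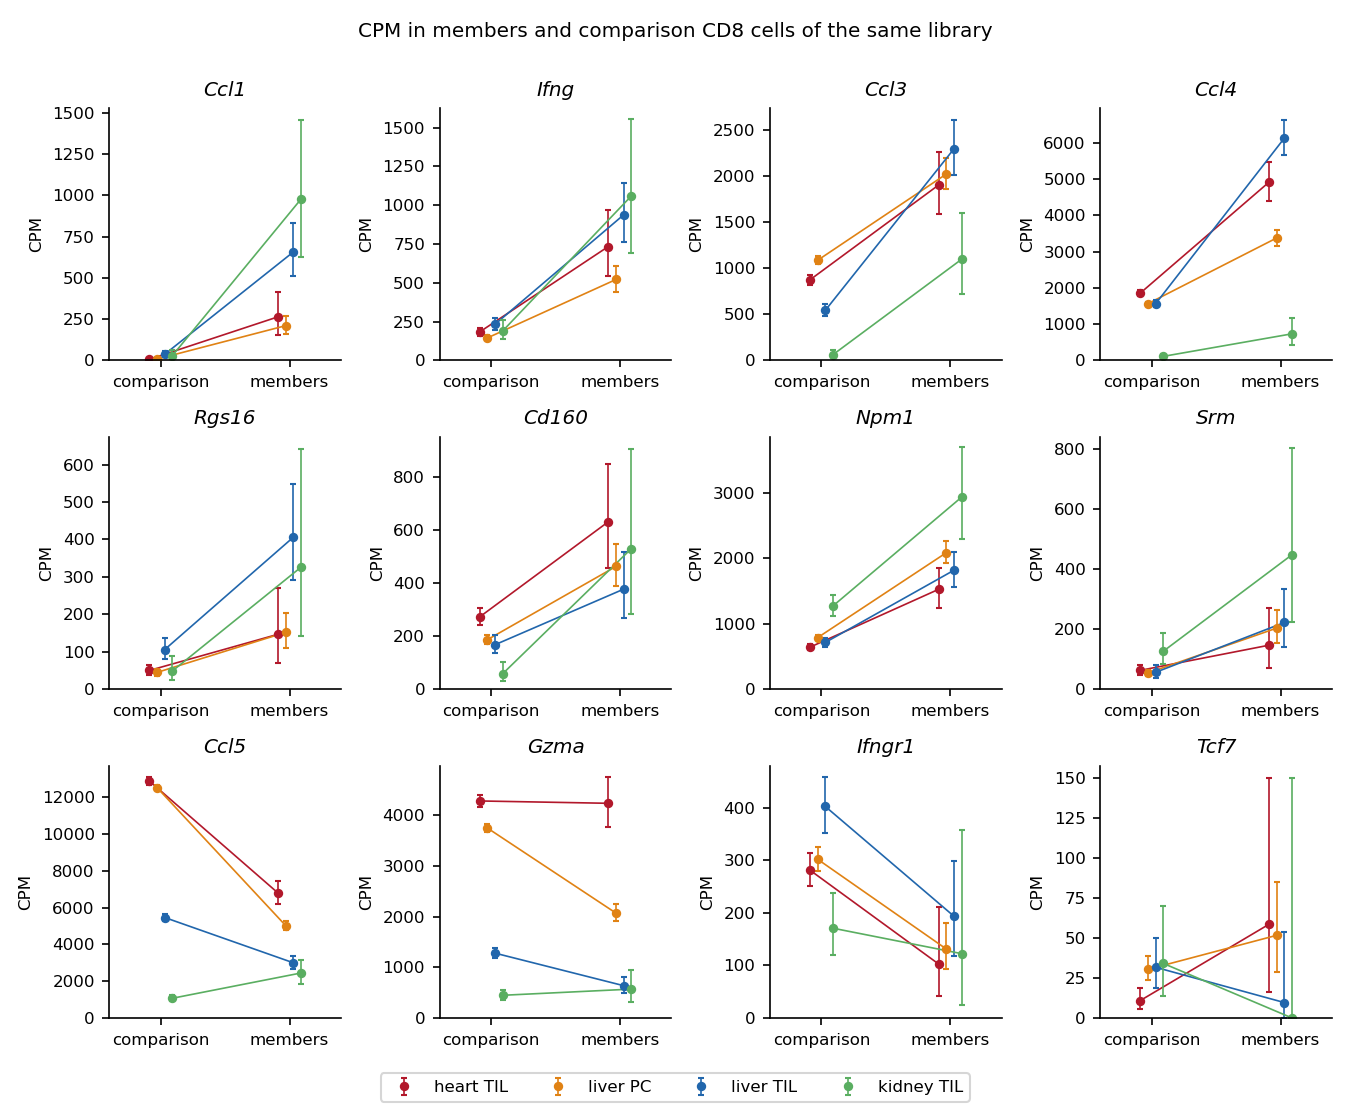
Level of 12 genes (vertical axes, CPM, linear from 0) in comparison cells and members, with 1 line per library as labelled and exact 95% Poisson intervals for counting error. Ifng and Ccl1 lie higher in members in all 4 libraries, whereas the Tcf7 intervals of members and comparison cells overlap in each library.

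Many genes of ribosome production and translation were higher. Of 16 genes of a list of translation and MYC targets, 11 were higher in members and 0 lower, with a list median of 0.75 against -0.26 for all genes. The share of all tested genes called higher was 0.856%. This list, like the others, was chosen with earlier results of these data known, so its counts are a description. Npm1, a nucleolar chaperone of ribosome assembly, stood at 1526, 2085, 1818 and 2936 CPM in members and 642, 788, 715 and 1273 in comparison cells (log2 fold change 1.0, SE 0.17, edgeR adjusted p = 1.23e-06). Members lay above comparison cells in each library. Srm, the spermidine synthase, stood at 147, 204, 222 and 449 against 62.8, 54.2, 56.5 and 127 (1.52, SE 0.24, edgeR adjusted p = 1.44e-07). Nop58, a core protein of small nucleolar ribonucleoproteins, differed by 1.29 (SE 0.22) and C1qbp, a mitochondrial matrix protein, by 1.01 (SE 0.19). With total UMIs as the scale 15 of the 16 list genes were called higher, beside 3.89% of all tested genes. Of 14 glycolysis genes tested, 0 were called under the main scaling and 2 were called higher by total UMIs, Ldha (0.42) and Tpi1 (0.43).

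Of 23 tested genes of T-cell receptor-induced transcription, Nr4a2, Egr2 and Myc were higher, Nfkbia was lower and 19 were not called, beside 0.856% and 3.74% of all tested genes, with a list median of 0.20 against -0.26 for all genes. By total UMIs 7 were higher and 1 lower, beside 3.89% and 3.28% of all genes. Against depth-matched cells 2 of 22 were higher and 1 lower, beside 1.18% and 3.29%. Nr4a2, an immediate early nuclear receptor, stood at 44.0, 55.2, 77.4 and 40.8 CPM in members and 8.19, 14.3, 15.9 and 0 in comparison cells (log2 fold change 1.97, SE 0.44, edgeR adjusted p = 0.000624). Members held 3, 16, 8 and 1 UMIs of it, with 4 of the 8 in 1 cell, so its direction in the libraries labelled heart TIL and kidney TIL rests on too few UMIs to be placed. Without liver PC it was 2.20 and not called. Myc, which drives growth of stimulated T cells, stood at 132, 124, 338 and 0 against 59.2, 51.1, 54.7 and 4.88. Its call (1.49, edgeR adjusted p = 5.36e-06) was lost without the library labelled liver TIL (1.08). Egr2 was seen in members of 2 libraries only, and its call (2.36) was lost without liver PC (2.11) or the library labelled liver TIL (2.22) and against depth-matched cells. Rgs16, a regulator of G protein signalling that stimulated T cells express, stood at 147, 152, 406 and 326 against 50.1, 44.8, 106 and 48.8, higher in all 4 libraries (1.64, SE 0.24, edgeR adjusted p = 1.27e-08).

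Receptor genes were called in both directions. The list of inhibitory receptors and ligands also held other genes, such as Cd38 and Tox. Of its 16 genes, Cd160 and Cd200 were higher, Cd244 and Cd38 lower and 12 not called, beside 0.856% and 3.74% of all tested genes. Cd244 was not called against depth-matched cells. Cd160, which binds HVEM, stood at 631, 463, 377 and 530 CPM in members and 272, 186, 168 and 58.5 in comparison cells, with the widest gap in kidney TIL (log2 fold change 1.15, SE 0.20, edgeR adjusted p = 1.14e-06). Pdcd1, which encodes PD-1, was 205, 235, 455 and 326 against 161, 144, 296 and 317 and was not called (0.28, SE 0.21, edgeR adjusted p = 0.555), but by total UMIs it was called higher (0.57, edgeR adjusted p = 0.00939). Cd200 stood at 249, 131, 67.7 and 40.8 against 64.6, 56.0, 42.3 and 63.4 (1.03, edgeR adjusted p = 0.00871), and its call was lost without the library labelled heart TIL (0.82) or liver PC (0.97). The list of costimulatory and TNF receptor family genes, without Tnfrsf9, also held adaptor and survival genes such as Traf1 and Bcl2a1b. Of its 19 tested genes, Tnfrsf4, which encodes OX40, was higher (1.05, edgeR adjusted p = 0.00604) and 18 were not called, beside 0.856% and 3.74% of all tested genes. The list median was 0.38 against -0.26 for all genes. By total UMIs 5 of the 19 were higher (Tnfrsf4, Tnfrsf18, Cd27, Bcl2a1b and Bcl2a1d), where 3.89% of all genes were. Against depth-matched cells 2 of 18 were higher (Tnfrsf4 and Bcl2a1b), where 1.18% of all genes were. Members held 5, 34, 19 and 4 Tnfrsf4 UMIs, with 14 of the 34 in 1 cell and 14 of the 19 in 5 cells. The call of Tnfrsf4 was lost without liver PC (0.82) or the library labelled liver TIL (0.94).

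Cytotoxic genes were called in both directions. Of 22 cytotoxic and effector genes, Prf1, which encodes perforin, was higher and Gzma, Gzmk, Id2, Lgals1, Ccl5 and Ly6c2 were lower, beside 0.856% and 3.74% of all tested genes, and the list median of -0.22 lay close to that of all genes, -0.26. Against depth-matched cells the calls of Gzmk and Lgals1 were lost. By total UMIs Klrk1 and Serpinb6b were called higher as well, beside 3.89% of all genes. Gzma had log2 ratios of -0.016, -0.86, -1.0 and 0.35, so it was clearly lower only in liver PC and the library labelled liver TIL. Gzmb was not called, at 4005, 4806, 4903 and 856 CPM in members against 5389, 6116, 3509 and 585. Prf1 (0.69) was called in 1 of the 4 fits that left a library out, being lost without the library labelled heart TIL (0.84), liver PC (0.87) or the library labelled liver TIL (0.52). Ly6c2, a surface protein of effector and memory CD8 T cells and of monocytes, stood at 778, 1598, 725 and 1386 against 1205, 2130.04, 1367 and 2664, lower in every library (-0.99, SE 0.18, edgeR adjusted p = 9.17e-06). Of 14 residency and trafficking genes, Rgs16 was higher and Itga4, Itgb7, Selplg, S1pr4 and Cd52 were lower, beside 0.856% and 3.74% of all tested genes. The list median was -0.85 against -0.26 for all genes. By total UMIs and against depth-matched cells Rgs1 was called higher as well, beside 3.89% and 1.18% of all genes. Of 15 progenitor and memory genes, 0 were higher and 2 lower, among them Dapl1, with a list median of -0.75 against -0.26 for all genes and 3.74% of all genes called lower. Against depth-matched cells 0 of the 15 were called. Dapl1 had 1 or 2 UMIs in members of each library and a log2 ratio of 0.26 in the library labelled heart TIL, and its lower call (-2.09) was lost without kidney TIL (-1.32).

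Receptors for cytokines and chemokines gave 0 higher and 4 lower of 18, among them Ifngr1, Ccr2 and Cxcr6, beside 0.856% and 3.74% of all tested genes. The list median was -0.68 against -0.26 for all genes. Ifngr1, a chain of the interferon gamma receptor, stood at 103, 131, 193 and 122 CPM in members and 281, 302, 402 and 171 in comparison cells, lower in each library, though with 3 UMIs of members in kidney TIL (log2 fold change -1.37, SE 0.24, edgeR adjusted p = 1.58e-06). Of 16 interferon-stimulated genes, 7 were lower and 0 higher, with a list median of -0.86, beside 3.74% of all tested genes called lower and a median of -0.26 for all genes. Irf7 was one of them (-1.30, edgeR adjusted p = 0.000914), at 44.0, 76.0, 67.7 and 40.8 against 187, 144, 129 and 58.5. Its call was lost without the library labelled heart TIL (-1.05). Of 15 dissociation-response genes, Fos, Dusp1 and Zfp36 were lower and 0 higher, beside 3.74% and 0.856% of all tested genes. The list median was -0.63 against -0.26 for all genes. By total UMIs 3 were lower and 2 higher (Hspa8 and Hsp90aa1), beside 3.28% and 3.89% of all genes. Against depth-matched cells 3 of 14 were lower and 0 higher, beside 3.29% and 1.18%. Of 6 tested partners of XCL1, CRTAM, 4-1BB, CD200 and interferon gamma, Ifngr1 was lower, beside 3.74% of all tested genes in the main fit. Cd200r4 and Xcr1 had 0 UMIs in members of all 4 libraries, which is a description, since Cd200r4 passed the filter on low counts through the comparison cells alone.

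These lower genes moved together with markers of other cells. The 58 genes called lower in every fit that left a library out included Lyz2, C1qa, C1qb, C1qc and Fcer1g of macrophages, S100a8 and S100a9 of neutrophils, Cd74 of antigen-presenting cells and Jchain of plasma cells, as well as Cd7 and Ly6c2 of T cells, all named after their values were seen. The summed macrophage and monocyte markers (11 genes) stood between 3283 and 6209 CPM in members and between 3674 and 12772 in comparison cells, lower in members of the first 3 libraries and at 3385 against 3674, with overlapping intervals, in kidney TIL. In sum, the 8 neutrophil markers stood between 40.8 and 3143 against 53.7 and 8902, the 9 dendritic cell markers between 1074 and 3694 against 1966 and 5240, and the 5 plasma cell markers between 122 and 11808 against 171 and 18536, each lower in members of the first 3 libraries. In kidney TIL the neutrophil sum was 1 UMI and the plasma cell sum 3 UMIs in members, too few to be placed, and the intervals of the dendritic cell sums overlapped. Of the 9 dendritic cell genes, 7, 8, 4 and 2 were lower in members and 1, 0, 2 and 2 higher. In members 6, 5, 5 and 6 of these 9 genes were at 0, with Xcr1, Clec9a and Flt3 at 0 in each library. Of the 5 plasma cell genes, 4, 4, 3 and 3 were lower and 1, 1, 2 and 0 higher. Ifngr1, Ccr2, Ly6c2, Fos and the interferon-stimulated genes are also expressed by myeloid cells, and the part of such RNA in their lower values was not tested. The 11 NK cell markers stood between 612 and 2340 in members and 981 and 4162 in comparison cells, with the sum lower in all 4 (the intervals overlapped in kidney TIL), but 4, 5, 2 and 0 of the 11 genes were higher in members. The sum of the 7 B-cell markers was lower in liver PC and the library labelled liver TIL, with overlapping intervals in kidney TIL and the library labelled heart TIL. The 5 gamma delta T-cell markers held 4, 18, 1 and 1 UMIs in members. Their intervals overlapped except in the library labelled liver TIL, where members held 1 UMI. The 5 regulatory or CD4 T-cell markers, which include Tnfrsf4, were higher in liver PC (207 against 140 CPM) and the library labelled liver TIL (319 against 122), and stood at 117 against 116 and 163 against 166 in the libraries labelled heart TIL and kidney TIL. The 15 parenchymal or stromal markers were lower in 3 libraries and higher in the library labelled liver TIL, at 1934 CPM in members against 512, with 7 of the 15 at 0 in its members (among them Myl7 and Alb). The 6 erythroid markers were lower in 3 libraries, and in liver PC they gave 1 UMI in members and 3 in comparison cells. The part of these cells in the results was not tested. With cells that held any UMI of 8 genes of other cell types removed, 18 of 263 members remained, and Ccl1 alone was called.

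By the rule for naming, the 12 genes with the largest higher values were Ccl1 (4.38), Utf1 (2.85), Dnaja3 (1.99), Rgcc (1.97), Nr4a2 (1.97), Snhg15 (1.89), Ifng (1.74), Rcc1l (1.71), Rgs16 (1.64), Nolc1 (1.62), Srm (1.52) and Rpp14 (1.51). The rule asked for a higher CPM in all 4 libraries, but in kidney TIL members held 1 UMI each of Utf1, Rgcc, Nr4a2 and Rcc1l, 3 each of Dnaja3, Snhg15 and Rpp14 and 4 of Nolc1, and in the library labelled heart TIL 1 of Utf1, 2 each of Rcc1l and Nolc1, 3 of Nr4a2 and 4 of Dnaja3. Rcc1l also had 4 in the library labelled liver TIL. The direction of these genes in those libraries rests on too few UMIs to be placed. Rgcc, a regulator of the cell cycle, stood at 176, 65.6, 174 and 40.8 CPM in members and 21.8, 13.0, 54.7 and 19.5 in comparison cells. Nolc1 is a nucleolar protein and Rcc1l and Dnaja3 act in mitochondria. The calls of Utf1, Dnaja3, Nr4a2, Rcc1l, Nolc1 and Rpp14 were lost without liver PC, at 2.26, 1.74, 2.20, 1.52, 1.45 and 1.26, and that of Rcc1l also without the library labelled liver TIL (1.66). The 12 largest lower values belonged to genes at 0 or 1 UMI among 485750 UMIs of members, which passed the filter on low counts through the comparison cells alone and are therefore given as a description. Hipk1, Cd200r4, Ear2, Ogfrl1, Pak1 and Soat2 had 0 UMIs in members and 51 to 68 among 4102814 UMIs of comparison cells, pooled over the 4 libraries. Against a floor of 3 counts over the members, the pooled values are at least 2.49-, 2.68-, 2.53-, 2.25-, 2.21- and 2.01-fold lower. For each of these genes, 1 library held 29 to 47 of the comparison UMIs, so these are not bounds within a library. Actn2, N4bp1, Rnf19b, Arhgap27, Slc43a2 and Nemp2 had 1 UMI each in members and 111, 97, 89, 84, 86 and 83 in comparison cells.

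Several of the lower genes named above lost their calls when 1 library was left out. Whether this came from the library left out or from fewer data was not tested. Their calls were lost without liver PC for Gzma (-0.63), Gzmk (-1.01), Id2 (-0.80), Ccr2 (-1.39), Cxcr6 (-0.84), Itga4 (-0.66), Itgb7 (-0.92), S1pr4 (-1.12), Cd52 (-0.82), Dusp1 (-1.06), Zfp36 (-0.66), Nfkbia (-0.76), Cd38 (-1.98) and Cd244 (-1.88). The same held without the library labelled heart TIL for Gzmk (-1.12), Id2 (-0.84), Cxcr6 (-0.68), Itgb7 (-0.93), Selplg (-0.85), S1pr4 (-1.03), Cd52 (-0.85), Dusp1 (-0.68), Nfkbia (-0.78), Cd38 (-1.42), Cd244 (-2.13) and Cxcl10 (-0.98), and without the library labelled liver TIL for Gzma (-0.56), Gzmk (-0.71), Id2 (-0.77), S1pr4 (-1.09), Cd52 (-0.78) and Cd38 (-1.57). Ly6c2, Ifngr1 and Fos were called lower in each of these fits.

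In all, 13 genes were called higher in every fit that left a library out, namely Ccl1, Rgcc, Snhg15, Ifng, Rgs16, Srm, Ccl3, Ccl4, Nop58, Eef1e1, Cd160, C1qbp and Npm1. All 13 were also called by total UMIs, with DESeq2 and against depth-matched cells, and 12 in cells of 1000 to 2000 UMIs. Without both TIL libraries whose organ genes went against their labels, 2 libraries and Ccl1 alone of the 13 remained called, with log2 fold changes of 4.53 for Ccl1 (edgeR adjusted p = 1.1e-08) and 1.79 for Ifng, which was not called. The count of higher genes was 58 without the library labelled heart TIL, 17 without liver PC, 34 without the library labelled liver TIL and 172 without kidney TIL, and the count of lower genes was 157, 96, 188 and 470.

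CD8 T cells in cycle, which the rule had set aside, gave a separate set of cells for the same contrast. In the 3 libraries with at least 20 such cells per class (labelled heart TIL, liver PC and labelled liver TIL), those with at least 3 UMIs of the 3 genes were set against those with 0, and 171 of 9811 genes were higher (1.74%) and 246 lower (2.51%). Of the 94 higher genes of the members, 60 were among the 171, which is 63.8% of the members' calls and 35.1% of those in cycling cells. Ccl1 (4.25, edgeR adjusted p = 1.89e-17), Ifng (1.81, edgeR adjusted p = 2.43e-20), Ccl4 (1.30) and Ccl3 (1.15) were higher again, and Ccl5 (-1.09) and Gzma (-1.30) lower. Of the 16 translation genes 14 were higher, and of the 23 receptor-induced genes tested in members 22 could be tested here and 0 were called. Cd160 was not called in cycling cells (0.44, edgeR adjusted p = 0.247). Cycling cells come from the same libraries and animals and are not further replicates. Depth also differed here, with median UMIs of 2135.5 against 1256.5, 3748.5 against 2021 and 2088.5 against 1151. No depth-matched fit was made for cycling cells, so the part of depth in the shared calls was not tested. Without liver PC, 43 genes were higher and 75 lower, and without the library labelled heart TIL 76 and 94. Without both TIL libraries whose organ genes went against their labels, liver PC alone would remain, and the contrast was not run.

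Among all CD8 T cells, the cycling share was 39.0%, 55.4%, 29.4% and 9.68% with at least 3 UMIs of the 3 genes and 19.5%, 33.6%, 17.2% and 18.1% with 0, higher in 3 of the 4 libraries. In cells thinned to 500 UMIs, with 1 UMI as the threshold on both sides, 35.2%, 40.7%, 30.8% and 43.9% of cells with a UMI of the 3 genes held a cell-cycle UMI against 41.9%, 43.4%, 38.0% and 60.1% of cells without. The share was then lower in all 4 libraries, with depth and thresholds both changed, and no order is read from either measure.

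**Figure D4:**
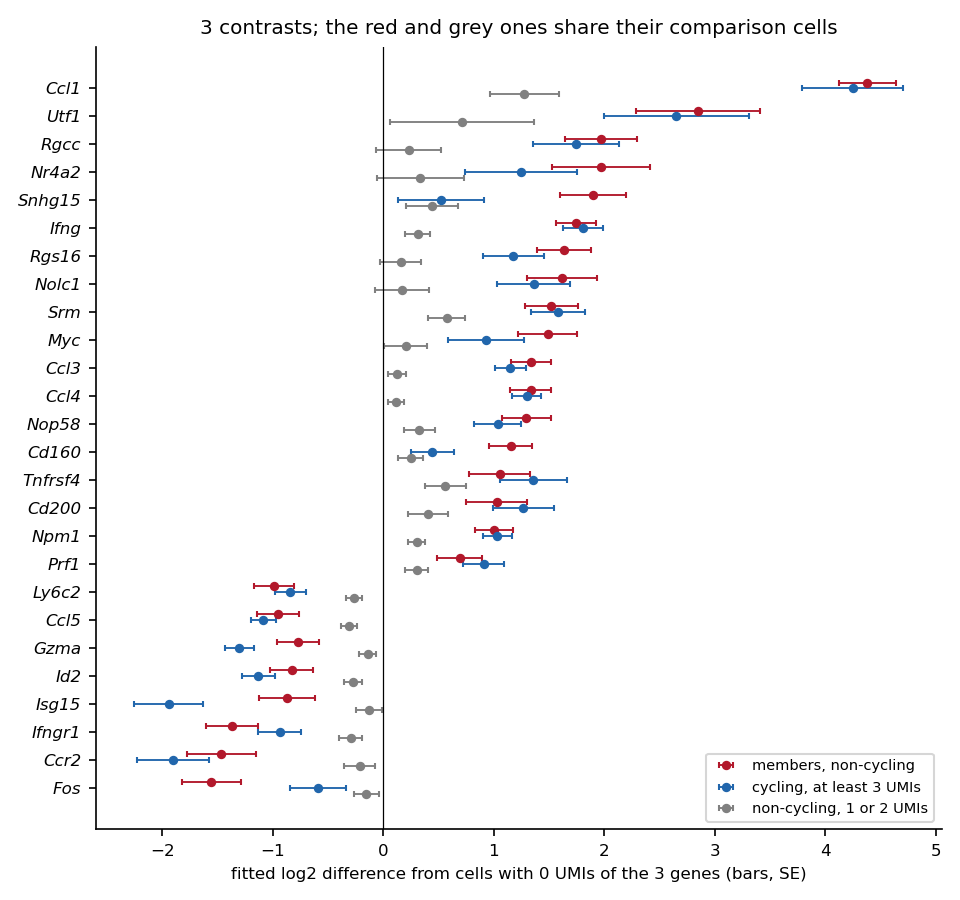
Fitted log2 differences of named genes (vertical axis) in 3 contrasts against CD8 T cells with 0 UMIs of Xcl1, Crtam and Tnfrsf9 (horizontal axis, bars give the SE): non-cycling members (red), cycling cells with at least 3 UMIs (blue), and non-cycling cells with 1 or 2 UMIs (grey, with the same comparison cells as red). Ccl1 lies at 4.38 in members and 4.25 in cycling cells.

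Cells with 1 or 2 UMIs of the 3 genes gave few calls. Of 11377 genes, 1 was called higher (0.00879%; Ighg2b, 0.55) and 3 lower (0.0264%; among them Ighg3 and Uox). Ighg2b and Ighg3 are antibody genes of plasma cells and Uox is known from hepatocytes. At an unadjusted p under 0.05, 166 of the 11377 genes were higher, a count that chance alone can give at this threshold and from which nothing is read. Levels were also described by the sum of the 3 genes. The mean Ifng level of the 4 libraries was 188, 249, 319, 644 and 1052 CPM at sums of 0, 1, 2, 3 or 4, and 5 or more. The corresponding Ccl1 means were 20.2, 60.2, 48.1, 284 and 867, and the Npm1 means 854, 1039, 1275, 2021 and 2074. The last Ccl1 mean joins 419, 285, 847 and, in kidney TIL, 1916 CPM, which rests on 16 UMIs in 9 cells. Ccl5 means were 7982, 6953, 5663, 4177 and 4525. Single libraries departed from these means, such as liver PC, where Ifng was 665 at a sum of 3 or 4 and 441 at 5 or more. Just outside the threshold, the 222 cells with a sum of 2, pooled over libraries, held 274 Ifng (95% Poisson interval 221 to 335), 52.5 Ccl1, 1078 Npm1, 99.1 Cd200 and 43.7 Tcf7 CPM. Just inside it, the 88 cells with a sum of 3 held 353 (261 to 466), 201, 1979, 93.5 and 36.0, so the Ifng intervals overlapped and Cd200 and Tcf7 had the lower value. Median depth was also higher at larger sums, at 836, 944.5, 1108.5, 1161 and 1483.5 UMIs in the library labelled heart TIL, so these values are a description without a test.

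**Figure D5:**
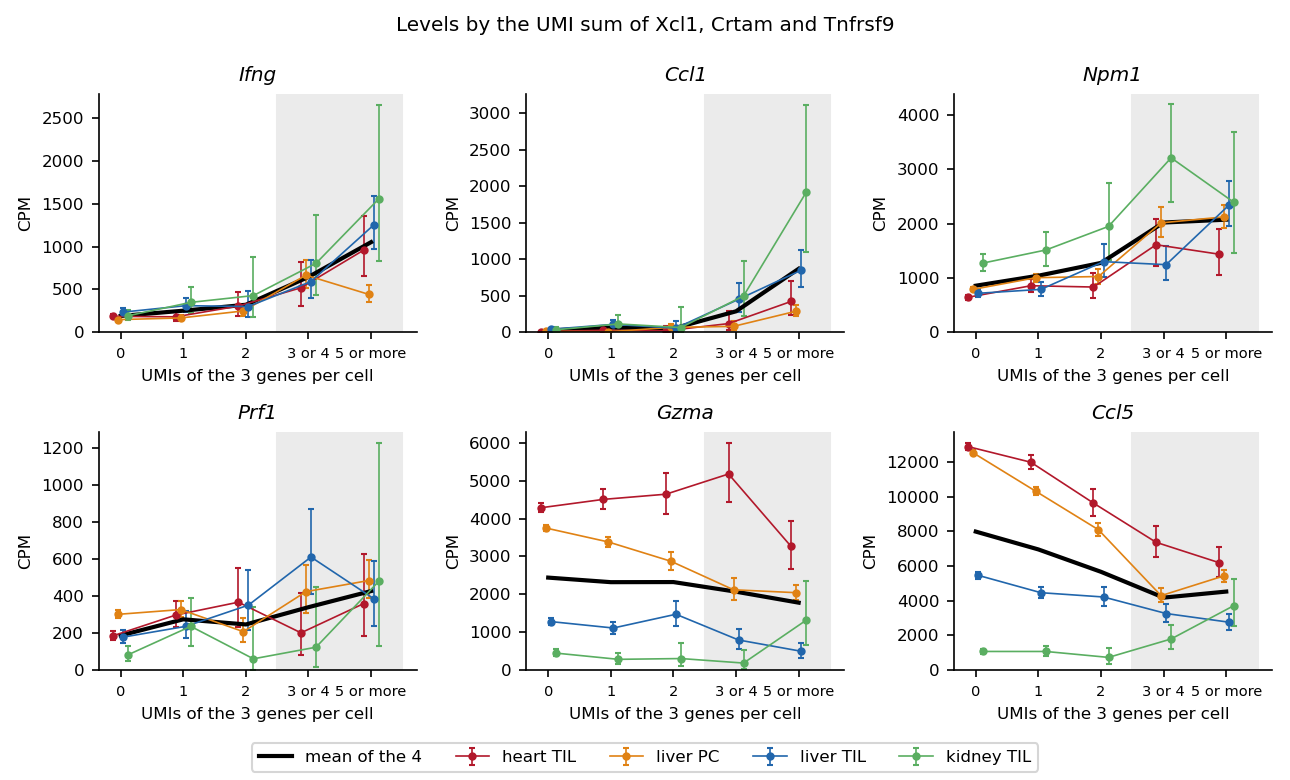
Level of 6 genes (vertical axes, CPM, linear from 0, with exact 95% Poisson intervals) by the summed UMIs of Xcl1, Crtam and Tnfrsf9 per cell (horizontal axes), with 1 coloured line per library as labelled, a black line for the mean of the 4 libraries and grey shading for members. The mean Ifng level goes from 188 at a sum of 0 to 1052 at 5 or more.

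Members that held Xcl1 alone were set beside those that also held Crtam or Tnfrsf9, as a description of cells within a library with no test. In liver PC, Ifng stood at 170 CPM (95% Poisson interval 84.8 to 304, 28 cells) with Xcl1 alone and at 593 (491 to 710, 72 cells) with a second gene, and Ccl3 at 695 and 2161. In the other libraries the Ifng intervals overlapped, at 768 and 762 in the library labelled heart TIL, 785 and 1055 in the library labelled liver TIL and 1081 and 1040 in kidney TIL. Ccl1 stood at 236 and 346, 154 and 246, 295 and 802, and 83.1 and 1841, with intervals that overlapped in the first 3 libraries, and the last pair rests largely on the single cell with 15 UMIs. In liver PC, 1 member held 32 of the 151 Ifng UMIs. The 22 members without Xcl1, pooled over libraries, stood at 9245 Gzmb, 4091 Ccl3 and 601 Tnfrsf4 CPM, against 2534, 1061 and 53.4 in the 87 with Xcl1 alone. In liver PC, the 11 without Xcl1 had 849 Ifng and 4320 Ccl3 CPM. As a description of the counts that the rule used, the 3 genes were also examined in pairs over all CD8 T cells, thinned to 500 UMIs. Xcl1 and Tnfrsf9 were together in 17, 25, 25 and 10 cells where 8.27, 13.2, 15.3 and 6.53 would be given by independence, with log2 odds ratios between 0.903 and 1.31 (mean 1.09). Xcl1 and Crtam had a mean of 1.21 and a negative value in kidney TIL (-0.46), and Crtam and Tnfrsf9 a mean of 0.45 and a negative value in the library labelled liver TIL (-0.33). Nothing about the members is supported by these values.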

How the data were processed

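Single cells were captured by Microwell-seq and sequenced by the authors, who removed multi-aligned reads and merged UMIs at 1 edit distance. The submitters' processing notes name bcl2fastq, STAR and GRCm38, and the study's methods name Drop-seq tools and a GENCODE annotation. The deposited files hold whole-number UMI counts per gene and cell, 10000 barcodes per library, raw and unnormalized. Each library's group was taken from its label. The study's stated filter (at least 500 UMIs, at most 10% mitochondrial) left 47541 of 80000 barcodes, from 795 to 10000 per library. No doublet caller was run.

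Counts were summed per library and class (at least 20 cells) and tested with edgeR 4.0.16 (R 4.3.3) by the quasi-likelihood test with library as a term, TMM scaling, at least 10 UMIs per gene over the sums and Benjamini-Hochberg adjusted p under 0.05. The design left 3 residual degrees of freedom per gene, and edgeR pools its estimate of the spread between libraries over genes. The p-values therefore measure mainly this shared spread and not that of a single gene over the 4 libraries. Each library may hold pooled animals. Cells were not treated as replicates. The named genes were the 12 with the largest change in each direction among called genes with at least 30 UMIs and the same direction in every library. Other genes named in the report belong to the lists or were chosen after their values were seen, as were the genes called in every fit that left out a library. On simulated counts for this comparison (10960 genes in the fit, with 50 changed at each value), the fit recovered 100% of genes changed by a log2 value of 2, 86% of those by -2, 24% of those by 1 and 42% of those by -1. It called 6 unchanged genes, and the unchanged genes had a median log2 value of -0.229. The changed genes were drawn only from those with at least 100 UMIs over the sums, and all genes were given the same spread. Recovery of genes with fewer UMIs, or with UMIs held by few cells, was not simulated. Intervals are exact 95% binomial or Poisson intervals and cover counting error only. Thinning drew 500 UMIs per cell with a fixed seed. Promoter windows are from RefSeq and gene positions from a GENCODE annotation, and Crtam had no entry among the windows. Alternatives used DESeq2 1.42.0 and the settings given in the closing section. The members and gene lists were chosen with earlier results of these data known, and several alternatives (marked in the closing section) were added after the data were seen. Some genes that belong to the counts given are not reported here by name.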

Additional observations from a re-analysis of the deposited data

Results flagged for a closer look

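Of 47 sets of 4 or 5 library values tested for a value far from the rest, 1 was found, where chance gives about 1 in 20. The log2 ratio of members to comparison cells for Cd160 was 3.18 in kidney TIL, against 1.21 in the library labelled heart TIL, 1.31 in liver PC and 1.17 in the library labelled liver TIL. The gap to the nearest value was 0.929 of the whole range.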

How the results depend on the processing

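The main comparison called 94 genes higher and 411 lower. The higher count was 203 with RLE size factors, 427 with total UMIs alone, 158 with at least 50 UMIs per gene and 207 with at least 50 cells per class, and DESeq2 called 73 higher and 182 lower. Cells of 1000 to 2000 UMIs gave 15 higher and 244 lower, and 84 lower when also scaled by total UMIs. Without both TIL libraries whose organ genes went against their labels, 2 genes (Ccl1 and Penk) were higher and 0 lower, where 239 were lower at an unadjusted p under 0.05 by edgeR, and with total UMIs 120 were lower. Without cells that held UMIs of other cell types, 1 was higher and 0 lower (174 at an unadjusted p under 0.05), and with total UMIs 1 and 1, from 18 of 263 members (1, 11, 1 and 5 per library, below the minimum of 20), so fewer cells entered. Without a library term, 2 were higher (Ccl1 and Ifng) and 0 lower (754 at an unadjusted p under 0.05). Leaving out each library gave 17 to 172 higher and 96 to 470 lower. Counts at an unadjusted p include genes that pass by chance, and none of them is read as a result. The cause of these shifts in the counts called was not tested. Alternatives that paired a restriction with total UMIs, and all those of the next 2 contrasts, were chosen after seeing the data. For cells with 1 or 2 UMIs, where 1 gene was higher and 3 lower, total UMIs gave 6 and 8, leaving out each library 0 to 3 and 1 to 9, and leaving out both of those TIL libraries 2 and 1. In cycling cells total UMIs gave 329 higher, and leaving out each library 43 to 194 higher and 75 to 267 lower.

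The tissue excess of members, 4.89 percentage points, was 3.02 with at least 4 UMIs (exact permutation p = 0.0893), 13.5 in cells of at least 1000 UMIs (p = 0.0714, with 3 such cells in kidney PC), 4.09 to 5.66 without each library and 4.49 without both of those TIL libraries. With at least 2 UMIs it was 9.36 (exact permutation p = 0.0179). None of these p-values separates the member shares from the background in macrophages and monocytes, which also differed. The mean log2 odds ratio of gene pairs over 8 libraries, 2.80 for Xcl1 with Crtam, 2.06 for Xcl1 with Tnfrsf9 and 2.11 for Crtam with Tnfrsf9, rests on libraries without a doubly positive cell, where the constant of 0.5 sets the ratio. It ranged over leaving out each library from 2.11 to 3.27 for Xcl1 with Crtam, 1.495 to 2.62 for Xcl1 with Tnfrsf9 and 1.54 to 2.45 for Crtam with Tnfrsf9, and over the 4 libraries alone, an alternative added later, it was 1.21, 1.09 and 0.45.

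Single genes that changed sign did so chiefly in the 18 members free of other cells' UMIs, where 2 libraries had 1 member each and no direction is read. There Tcf7 was -0.88, Npm1 -0.091, C1qbp -0.56, Tnfrsf4 -1.03, Pdcd1 -1.42, Prf1 -0.13, Ldha -0.79 and Tpi1 -0.52, and with total UMIs Tcf7 was -0.73, Tnfrsf4 -0.55, Pdcd1 -0.83, Gzmb 0.22, Ccr2 0.054 and S1pr4 0.33. In cells of 1000 to 2000 UMIs, Tcf7 was -0.95, Pdcd1 -0.086 and Ldha -0.032, and with total UMIs Tcf7 was -0.60, Gzmb 0.044 and Dapl1 0.15. Ldha was -0.078 without both of those TIL libraries. Leaving out each library, Tcf7 ranged from -0.13 to 0.76 and Tpi1 from -0.057 to 0.25, and in cycling cells Dnaja3 from -1.31 to 1.11, Snhg15 from -0.53 to 0.68, Gzmb from -0.54 to 0.021, Dusp1 from -0.98 to 0.094 and Cxcl10 from -1.48 to 0.16, each with its sign changed without liver PC. Members and comparison cells were paired by library through the library term. The labels carry no replicate numbers that would give a further pairing, and the test of tissue against blood did not pair libraries by organ. With 24523 UMIs in the members of kidney TIL, a gene at a few UMIs there could not be placed.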
